A study of Mus musculus with 22 samples.

Results

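How strongly each RNA was captured with phosphorylated ribosomes, relative to its level in the same tissue, was compared between MCH-hM3Dq mice and control mice. For every mouse and gene, IP over input was taken as log2(FPKM + 1) of the immunoprecipitate (IP) minus log2(FPKM + 1) of the input, so a value of 1 means that the IP held 2 times the input level on that scale. FPKM is a level scaled by transcript length and library size. All 22 of the 22 libraries entered the comparison, since each of the 11 mice gave 1 IP and 1 input library. Of 17440 genes in the deposited table, 14582 reached FPKM 1 in 4 or more libraries and were tested. The 4 hM3Dq mice (numbers 1, 3, 4 and 5) carried the genotype MCH-hM3Dq, and the 7 control mice (numbers 1 to 7) are labelled control. Mice of both genotypes were C57BL/6N, aged 10 to 13 weeks, fasted for 12 h and given clozapine N-oxide (CNO) 1 h before collection, so the drug and the fast are common to both. The design text counts 5 hM3Dq mice, 1 more than was analysed here. The labels name neither the promoter nor the cells that drive the receptor beyond the word MCH, and give no untreated hM3Dq mice.

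Ribosomal protein S6 is phosphorylated downstream of neuronal activity and of mTORC1 and ERK signalling, and phosphoTRAP uses an antibody to phosphorylated S6 (here serines 244 and 247) to pull down ribosomes with their messenger RNA. An RNA of cells with much phosphorylated S6 is therefore over-represented in the IP, and an RNA that is not on ribosomes is depleted from it. hM3Dq is an engineered muscarinic receptor, coupled to Gq, that excites neurons when CNO binds. Melanin-concentrating hormone (MCH) is a peptide of lateral hypothalamic and zona incerta neurons that promotes feeding, and some of their axons reach the arcuate nucleus and median eminence, the tissue collected here.

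No gene passed the test between the genotypes. Of 14582 genes tested, limma called 0 (0%) higher and 0 (0%) lower in hM3Dq mice at a Benjamini-Hochberg adjusted p under 0.05. The smallest adjusted p was 0.908, for Ccnb1ip1, and the next, for Rps27l, was 0.999. At an unadjusted p under 0.05 there were 448 genes (3.07%), 183 higher (1.25%) and 265 lower (1.82%), where 729.1 would be expected by chance. The 4 hM3Dq mice all lay above the 7 control mice for 31 genes (0.213%) and all below them for 28 (0.192%). The size of change that this design could resolve was large: the median standard error of a difference was 0.40 (10th to 90th percentile 0.24 to 0.59), and the median 95% interval reached 0.84 to either side. Differences were under 0.5 in size for 80.3% of genes, with a median size of 0.25. Across genes the mean IP over input of the genotypes had a Pearson correlation of 0.657, a description over genes that share libraries, and 68.8% of genes had the same sign in both. A 0 among calls therefore does not show that the genotypes were alike.

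**Figure D1:**
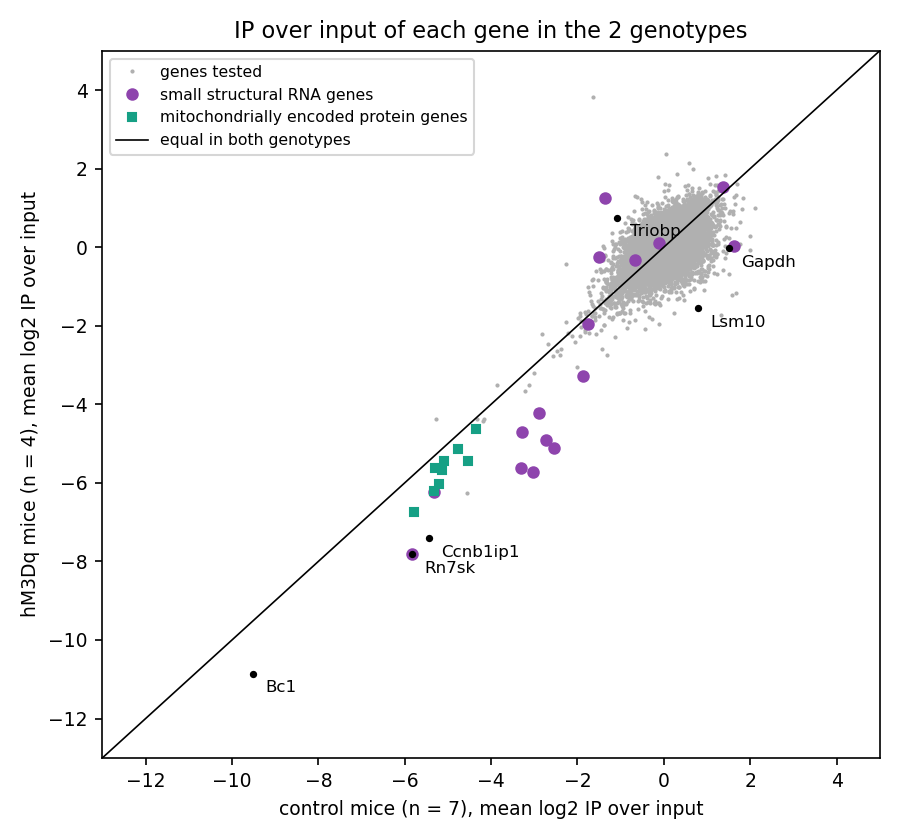
Mean IP over input (log2) of each of the 14582 genes tested in the 7 control mice (x axis) and in the 4 hM3Dq mice (y axis), with the line of equality. Small structural RNA genes (purple) and mitochondrially encoded protein genes (green squares) reach below -4 in both genotypes and most of them lie under the line, while most other genes lie near 0 in both. The single grey point near 4 on the y axis is the microRNA gene Gm24245.

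Genes of arcuate neurons were present: averaged over the 22 libraries, Agrp stood at an FPKM of 27.5, Pomc at 11.3, Ghrh at 11.5 and Th at 34.6. Pmch, which encodes MCH itself, averaged 276, more than any of these. Of 16 listed tanycyte genes 13 were tested, but not Rax, Adm or Nes, and Kiss1 was not tested. These levels alone do not establish which region was dissected. Of the endothelial list, Kdr and Cldn5 did not reach an FPKM of 1 in any library (highest 0.887 and 0.958) and were not tested. Read counts were not used here. Steps between low FPKM values gave an estimate of each library's relative depth, from 0.688 to 1.27, a 1.84-fold range. The search covered only a limited range of shifts, so larger differences in depth would be missed. Scaling in the deposited normalization would also enter these steps. In hM3Dq mice the estimated IP-to-input depth ratio was 0.06 ± 0.11 (log2, SD, n = 4). In control mice it was 0.35 ± 0.26 (SD, n = 7), with 0.78 in control mouse 1. The IP over input profiles of control mice 1 and 5 correlated least with those of the other mice, with median correlations to the other control mice of 0.139 and 0.115 across genes, against 0.225 to 0.260 in the other 5. In bulk tissue, fewer cells of a type and less RNA per cell cannot be told apart.

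IP over input spread less widely across genes in the 4 hM3Dq mice than in the 7 control mice, with almost no gap between the groups. The standard deviation of IP over input across the 14582 genes was 0.76, 0.74, 0.78 and 0.60 in hM3Dq mice 1, 3, 4 and 5, and ran from 0.776 to 1.02 in the control mice, with a median of 0.893. The highest hM3Dq value, 0.7756, lay just under the lowest control value, 0.7757, so the groups met without overlapping. The means were 0.717 ± 0.0817 (SD, n = 4) and 0.899 ± 0.104 (SD, n = 7), with a two-sided exact permutation p of 0.00909, where 330 splits allow no p below 0.00303. IP over input beyond 1 in size was found for 12.4% ± 3.71 of genes (SD, n = 4) in hM3Dq mice and 21.3% ± 4.89 (SD, n = 7) in control mice, with the same exact permutation p. The median over genes stood near 0 in every mouse, at 0.04 ± 0.02 and 0.03 ± 0.01 (exact permutation p = 0.661). Gene by gene, the spread between mice was larger in the control group for 79.3% of genes, with a median SD of 0.66 against 0.41. More input values were exactly 0 in control mice, 361 ± 219 genes (SD, n = 7) against 133 ± 84.4 (SD, n = 4), with an exact permutation p of 0.0667. Control mouse 1, with the shallowest input relative to its IP by estimated depth, had the most such genes, 772. The part of depth and of these zeros in the wider spread was not tested. Over the 5 measures per mouse compared here, chosen with the data known, the Benjamini-Hochberg adjusted exact permutation p was 0.0227 for each of the first 2. Those 2 measures describe the same spread of values, so they do not count as separate results.

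The transcripts at the low end of IP over input were structural and mitochondrial RNAs. Most small structural RNA genes had a lower mean in hM3Dq mice. Not all of them were depleted from the IP, and Gm26407 stood at 1.53 in hM3Dq and 1.38 in control mice. Structural RNAs work in the nucleus or outside ribosome-bound messenger RNA. 7SK (Rn7sk) restrains transcription elongation, and 7SL (Rn7s1) is the RNA of the signal recognition particle. H/ACA small nucleolar and Cajal body RNAs guide pseudouridylation, and Bc1 is a neuronal dendritic RNA that represses translation. Of 16 small nuclear, nucleolar, Cajal body and miscellaneous RNA genes tested, 11 had a lower mean in hM3Dq mice, and 0 passed the test. Over all 14582 genes, 7127 had a lower mean. The set of 16 was chosen after the data were seen, so this count is a description only. These genes share libraries and do not count as separate observations. The deposited table counts some of these genes under provisional names, and 3 of them are shown here by sequence because their names carry no function. These 3 loci lie within host genes on the same strand, Gtf2a1, Fbxo45 and Bud23, so host reads can add to their values. Sequences are from GENCODE release M21 (GRCm38), 5′ to 3′ of the transcript, and capitals mark an ACA triplet 3 bases from the 3′ end, the position of the ACA box of H/ACA RNAs.
Gm25776, snoRNA, chr12:91573430-91573572, minus strand: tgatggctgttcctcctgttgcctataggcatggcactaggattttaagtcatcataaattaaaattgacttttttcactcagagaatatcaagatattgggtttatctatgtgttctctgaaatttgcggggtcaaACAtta
Gm25848, snoRNA, chr16:32243712-32243855, minus strand: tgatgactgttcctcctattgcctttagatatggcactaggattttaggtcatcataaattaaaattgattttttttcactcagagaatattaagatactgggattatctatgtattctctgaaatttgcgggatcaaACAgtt
Gm25492, scaRNA, chr5:135053988-135054116, minus strand: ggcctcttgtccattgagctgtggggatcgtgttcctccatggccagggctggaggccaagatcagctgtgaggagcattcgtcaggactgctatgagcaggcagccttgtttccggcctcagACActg

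Gm25776 and Gm25848 matched at 129 of 144 aligned positions (89.6%), so reads may be divided between the copies and each level is uncertain. Gm25776 stood in the IP at FPKM values of 0, 3.27, 1.11 and 1.26 in hM3Dq mice 1, 3, 4 and 5, against 3.53 to 48.8 in control mice, with a median of 26.7. Its input values, 162, 178, 118 and 43.5 against 99.2 to 231 (median 137), overlapped, and the 4 hM3Dq IP values lay below all 7 control IP values. The resulting IP over input was -5.71 ± 1.26 (SD, n = 4) and -3.04 ± 1.34 (SD, n = 7), a difference of -2.68 (SE 0.65, limma adjusted p = 0.999). Gm25848 had -4.70 ± 1.54 and -3.28 ± 1.36 (difference -1.42), with hM3Dq mouse 1 alone at -7.01 and the other 3 at -4.05 to -3.82.

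Gm25492 gave a similar picture from another locus. Its IP values were 0, 1.39, 0 and 4.82 FPKM in hM3Dq mice 1, 3, 4 and 5, and 7.86 to 26.8 in control mice (median 16.7), so the IP groups were apart. The input was 110, 119, 52.6 and 27.0 against 61.3 to 157 (median 107). IP over input was -5.11 ± 1.97 (SD, n = 4) and -2.54 ± 0.69 (SD, n = 7), a difference of -2.57 (SE 0.63, limma adjusted p = 0.999). It overlapped the control range only through hM3Dq mouse 5, at -2.27, and without that mouse it was the 1 gene called in any alternative, at a difference of -3.52 (limma adjusted p = 0.00625). With 3 hM3Dq mice left in that fit, the call rests on leaving out the mouse that differed.

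Gm26461, annotated as a miscellaneous RNA gene within Zfp949 on the same strand, was at 0.50, 1.06, 0 and 0 FPKM in the hM3Dq IP and at 0 to 3.30 in the control IP (median 2.44), with inputs of 154, 85.3, 27.0 and 46.2 against 9.94 to 83.0 (median 34.2). All 4 hM3Dq mice, from -6.69 to -4.81, lay below all 7 control mice, from -4.37 to -1.65, in IP over input. The difference of -2.30 (SE 0.51) was made of -1.19 in the IP and 1.11 in the input. Rn7s1, of a multicopy family whose reads may be divided between copies, had -4.91 ± 1.02 against -2.72 ± 2.01 (difference -2.19), with control mouse 1 at 0.07 and the other 6 control mice at -5.02 to -0.67, so its groups overlapped. Rn7sk, the most abundant at a mean FPKM of 18832, had IP values of 111, 346, 70.6 and 246 FPKM in hM3Dq mice and 328 to 1323 in control mice (median 582). Its inputs were close, at 36420 ± 1965 FPKM and 37580 ± 14810 FPKM, and IP over input was -7.81 ± 1.10 and -5.84 ± 1.01, a difference of -1.97 (SE 0.52) of which -1.93 lay in the IP.

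Other structural RNAs varied in the same or the opposite direction. Rmrp, the RNA of RNase MRP, stood at -6.26 ± 0.40 in hM3Dq and -4.55 ± 1.94 in control mice (difference -1.71), and Bc1, the lowest of all named genes, at -10.86 ± 1.12 and -9.50 ± 1.43 (difference -1.35). Scarna2 (-1.41), Gm26397 (-1.32) and Gm24447 (-0.90) also had lower hM3Dq means. The snRNA gene Gm25047 had a higher one, 1.24 ± 1.36 against -1.36 ± 2.40 (difference 2.61), and the snoRNA gene Gm22504 differed by 1.26. Snord91a, Gm26407 and Gm27838 differed by 0.36, 0.15 and 0.21. Of 3 genes annotated as scaRNA all 3 had negative differences (median -1.41), as had 4 of 6 snoRNA genes (median -1.37). Malat1, a nuclear long noncoding RNA, went the other way from Rn7sk, at -0.53 to 0.19 against -3.02 to 0.89 (difference 0.77, overlapping). MicroRNA genes, counted here from fragments of the hairpin locus and not as mature microRNAs, numbered 21 with a median difference of 0.32, and Gm24245 among them had the largest positive difference of all genes, 5.46 (SE 1.66). Its IP over input ran from -0.55 to 7.35 in hM3Dq and from -6.25 to 2.25 in control mice.

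Among the other genes with the smallest p-values, the lower ones included 2 that hold a structural RNA gene, Ccnb1ip1 and Snhg15. Ccnb1ip1, annotated as a ubiquitin ligase of meiosis, spans Rpph1, the RNA of RNase P, on the same strand (chr14:50789248-50807732, GRCm38), and fragments of the 2 cannot be told apart in the table. It stood in the IP at 4.47, 11.1, 2.07 and 4.46 FPKM in hM3Dq mice 1, 3, 4 and 5 and at 8.31 to 27.2 in control mice (median 24.7), with inputs of 1569, 1254, 858 and 542 against 674 to 1192 (median 935). IP over input was -7.41 ± 0.85 (SD, n = 4) and -5.44 ± 0.60 (SD, n = 7). The difference of -1.96 (SE 0.36, 95% interval -2.73 to -1.19) had the smallest p of all genes, an unadjusted limma p of 6.23e-05, and lay in the IP (-1.85) more than in the input (0.12). Control mouse 6, at -6.65, was the only control mouse within the hM3Dq range, and without it the adjusted p was 0.0906.

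Rps27l, which encodes a ribosomal S27-like protein induced by p53, had IP over input of -0.94, -1.47, -1.65 and -1.08 in hM3Dq mice 1, 3, 4 and 5 and -0.36 to 1.77 in control mice (median 0.33). The groups were apart, at a difference of -1.63 (SE 0.36). Smim11, a small membrane protein gene, had -1.23 to -0.08 against -0.03 to 1.18 (difference -1.20), and Rpp21, a protein subunit of RNase P, had -0.88 to -0.28 against 0.09 to 2.43 (difference -1.55), both also apart. Control mice 1 and 4 were the highest for Rpp21, at 2.43 and 1.98. Gapdh, a glycolytic enzyme with many processed pseudogenes that may take part of its reads, had an IP over input of 0.27, 0.29, -0.50 and -0.16 in hM3Dq mice and 0.50 to 3.30 in control mice. Its IP level was 5.98, 7.89, 5.90 and 12.2 FPKM against 9.73 to 74.1 (median 12.9), and the difference of -1.53 (SE 0.45) was -1.16 in the IP. Input levels of Gapdh were also low, 4.78 to 13.7 FPKM in hM3Dq mice and 3.98 to 8.45 in control mice. How much of its reads went to pseudogenes was not tested. The other genes of this group were Med30 of the Mediator complex (-1.66), the oligosaccharyltransferase subunit Rpn1 (-1.44), Snhg15 (-2.20), the host gene of Snora9, and the U7 snRNP protein gene Lsm10 (-2.33), each with overlapping groups.

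The 10 genes with the smallest p in the higher direction had differences from 0.77 to 1.84. Triobp, an actin-binding protein gene, had 1.83, 1.45, 0.23 and -0.49 in hM3Dq mice 1, 3, 4 and 5 and -1.81 to 0.06 in control mice (difference 1.84, SE 0.50). Mtg1, a mitochondrial ribosome assembly GTPase, had 0.05, 1.78, 1.17 and 0.11 against -2.09 to -0.02 (difference 1.61, SE 0.46). Lix1l had 0.61, 0.26, 0.29 and 0.20 against -0.94 to -0.04 (difference 0.96, SE 0.29). For Mtg1 and Lix1l every hM3Dq mouse lay above 0 and every control mouse below it, as for 2 of all 14582 genes (0.0137%), these 2. The reverse, as in Rpp21, held for 7 (0.048%). These genes were named for their small p, which favours such patterns. In Mtg1 and Lix1l the input made up most of the difference, -1.22 against 0.38 in the IP for Mtg1 and -0.82 against 0.14 for Lix1l. Mtg1 input was 7.41, 1.90, 3.52 and 7.20 FPKM in hM3Dq mice and 4.62 to 42.3 in control mice, the highest in control mouse 1. Both genes overlap another gene on the opposite strand (Sprn and 6330549D23Rik), and strand use in the counting is not given in the sources used here.

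Kcnc1, the fast voltage-gated potassium channel Kv3.1, had 1.69, 1.57, 1.76 and 0.84 in hM3Dq mice and -0.03 to 1.00 in control mice, a difference of 0.93 (SE 0.30). The long-transcript genes Kmt2e, a chromatin reader (0.77), Smg1, a kinase of nonsense-mediated decay (0.99), and Cttnbp2, a postsynaptic protein gene (1.09), had overlapping groups. So had Polg, the mitochondrial DNA polymerase (1.27), Slc25a33, a mitochondrial pyrimidine nucleotide carrier (0.93), and Banf1, a chromatin-binding protein of the nuclear envelope (0.86). For Slc25a33 the overlap came from control mouse 1, at 0.07 against -1.05 to -0.66 in the other 6 control mice. Over the 448 genes at an unadjusted p under 0.05, the input part was the larger in 61.6%, against 51.7% of all genes.

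**Figure D2:**
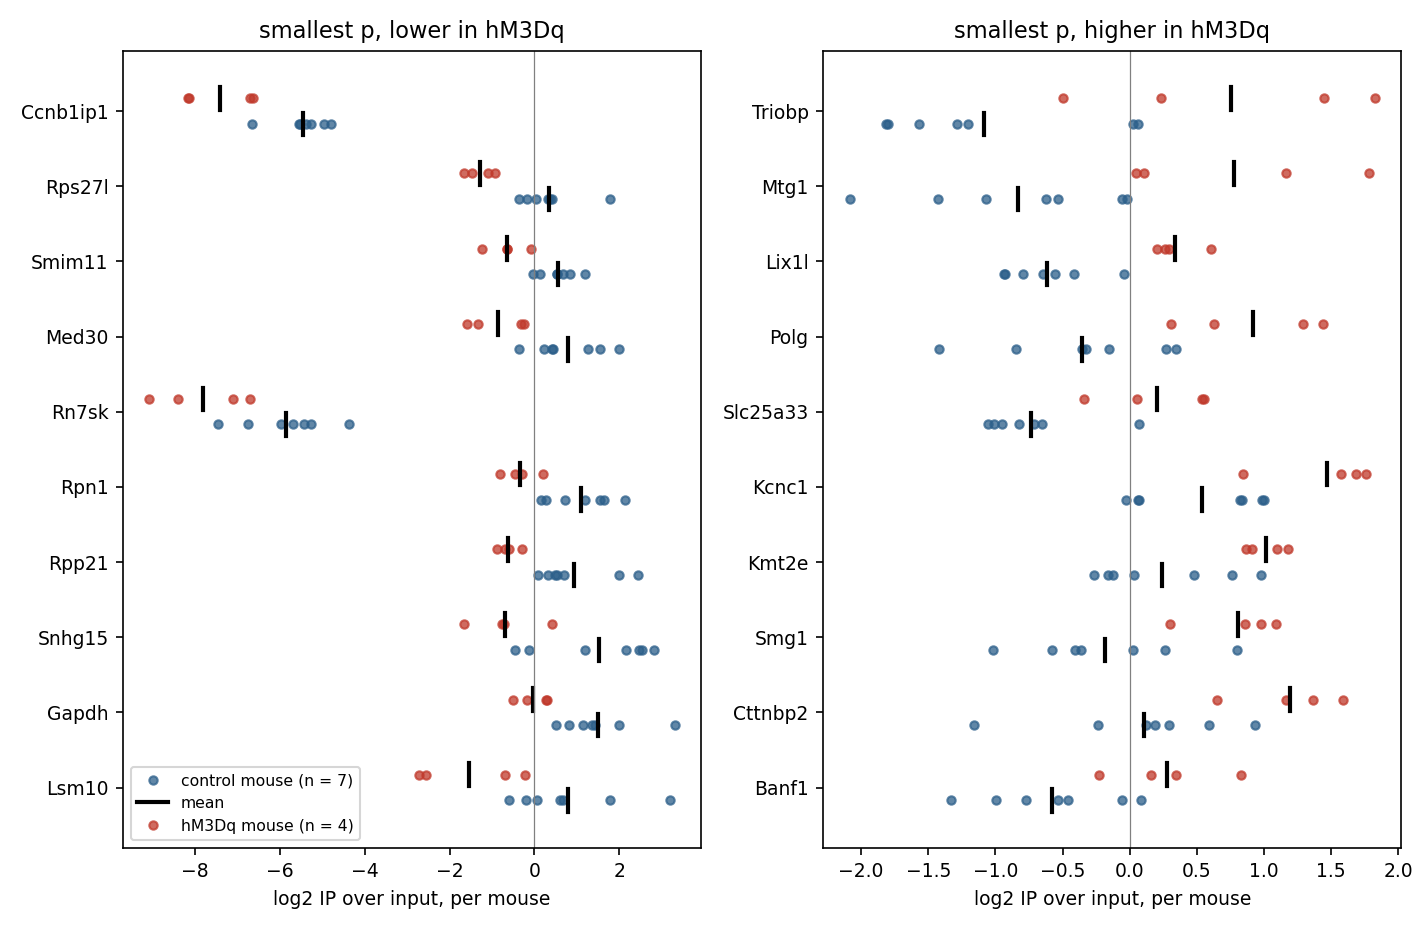
IP over input (log2, x axis) per mouse for the 10 named genes with the smallest unadjusted p in each direction, hM3Dq mice in red and control mice in blue, with group means as black bars. Groups are apart for Rps27l, Smim11, Rpp21 and Gapdh on the left and for Mtg1 and Lix1l on the right, and none of the 20 genes passed the adjusted test.

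Genes chosen for what the study manipulated did not separate the genotypes. Pmch, the MCH precursor, had IP values of 301, 61.4, 424 and 330 FPKM and inputs of 304, 46.8, 241 and 105 FPKM in hM3Dq mice 1, 3, 4 and 5. Control mice ran from 133 to 672 FPKM in the IP (median 279) and from 113 to 485 in the input (median 271). IP over input was -0.01, 0.38, 0.81 and 1.65 in hM3Dq mice and -0.80 to 1.31 in control mice, at a difference of 0.58 (95% interval -0.16 to 1.31). The IP contributed -0.30 and the input -0.88. hM3Dq mouse 5 and control mouse 1 were the highest of their groups, and the difference was 0.26 without the former and 0.77 without the latter. Mchr1, the MCH receptor gene, averaged an FPKM of 1.40 and differed by -0.39 (interval -1.74 to 0.95). Chrm3, the mouse gene of the muscarinic receptor type from which hM3Dq was engineered, differed by 0.44 (interval -0.73 to 1.61). The table does not tell the transgene from the mouse gene.

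Immediate early genes, which neurons switch on within minutes of firing, had list means above 0 in IP over input in every mouse, and the genotypes overlapped. Their mean over 33 tested genes was 0.68, 0.47, 0.49 and 0.58 in hM3Dq mice 1, 3, 4 and 5 and 0.51 to 0.63 in control mice (median 0.58), so that the control range lay inside the hM3Dq range. Means were 0.55 ± 0.10 (SD, n = 4) and 0.58 ± 0.05 (SD, n = 7). Of the 33, 17 had a positive and 16 a negative difference, with a median of 0.08 against 0.01 over all genes, and 0 passed the test. Fos had 1.74, 0.39, 0.43 and 1.19 in hM3Dq mice and -1.29 to 1.97 in control mice (difference 0.48, interval -0.57 to 1.54), and it was -0.02 without control mice 1, 5 and 6. Fosb differed by -0.09 (interval -0.90 to 0.72) and Npas4, at a mean FPKM of 0.672, by 0.31. Gadd45b, a stress and activity gene of DNA demethylation, was the 1 member at an unadjusted p under 0.05. It had 1.13, -0.33, -1.48 and 0.96 against 0.04 to 3.55 (difference -1.71, SE 0.63), of which 1.05 lay in the input.

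Arcuate peptide neurons gave mixed values. Agrp, a hunger peptide of AgRP neurons, had 0.14, 1.55, 0.28 and -0.47 in hM3Dq mice and -0.22 to 2.74 in control mice (difference -0.73, interval -1.76 to 0.30), and without control mice 1 and 5 the difference was -0.22. Npy, made by the same neurons, differed by -0.24 in IP over input, while its IP and input levels each differed by more, by -1.56 and -1.32. Of 7 AgRP neuron genes 6 had negative differences (median -0.43), the leptin receptor Lepr having the most negative, -0.93. Lepr levels were low, 0.52, 0.09, 0.55 and 0.06 FPKM in the hM3Dq IP against 0.46 to 3.69 in the control IP. Its IP over input overlapped between the groups. For the list, control mouse 5 had the highest mean, 1.59 against 0.11 to 0.82 in the other control mice. The median was -0.28 without that mouse and -0.20 without hM3Dq mouse 5. Pomc, the precursor of satiety peptides, differed by -0.27, and Prdm12, a transcription factor of POMC neurons, by 1.02 (0.89 ± 0.48 against -0.13 ± 0.80, SDs). Ghrh, the growth hormone releasing hormone, differed by 0.99 (interval -0.27 to 2.24), with the input at 3.12, 7.94, 4.30 and 3.88 FPKM in hM3Dq mice and 0.981 to 35.8 in control mice. Slc6a3, the dopamine transporter, had -0.20, 0.34, -0.54 and -0.30 in hM3Dq mice and 0.53 to 1.47 in control mice, apart at a difference of -1.08 (SE 0.36). Its levels were low, 1.24, 0.30, 0.48 and 0.11 FPKM in the hM3Dq IP against 0.81 to 11.4 in the control IP, and the whole dopamine list of 7 genes had a median of -0.31, which was -0.14 without control mouse 1 and -0.16 without hM3Dq mouse 3.

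**Figure D3:**
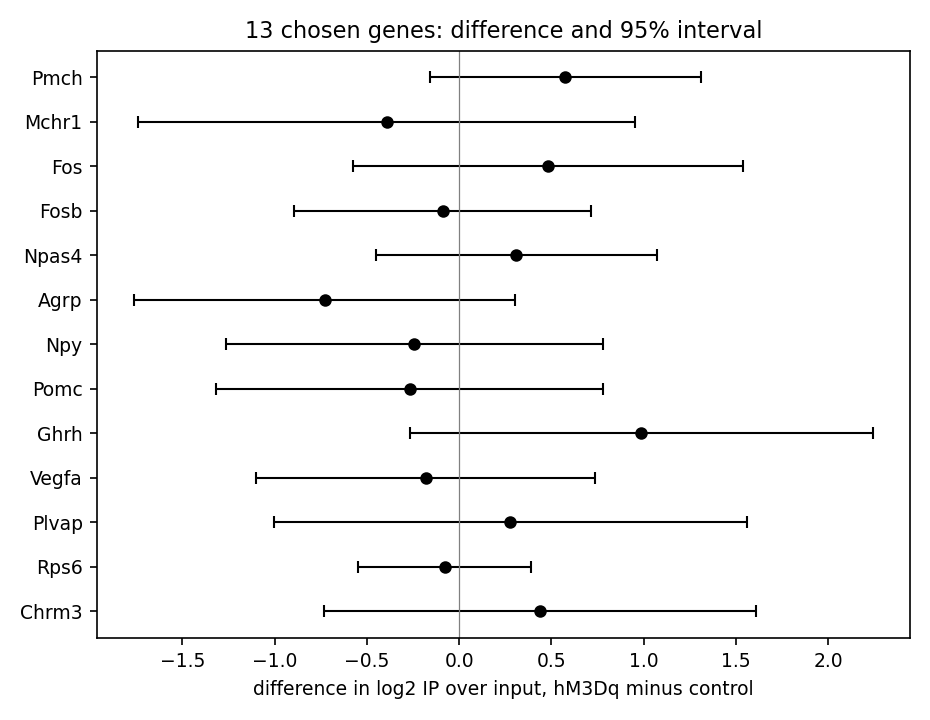
Difference in mean IP over input, hM3Dq minus control (log2, x axis), for 13 chosen genes, with the 95% interval of the limma fit to all 11 mice. Every interval contains 0, and they are narrowest for Rps6 (-0.55 to 0.39) and widest for Mchr1, Plvap and Ghrh.

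Genes of membrane excitability and synaptic contact had mostly positive differences, with 0 of them past the test. Of 21 potassium channel genes 17 had a positive difference, with a median of 0.34, where 7455 of all 14582 genes were positive. Kcnc1, Kcna2 (0.60) and Kcnq5 (0.80) were at an unadjusted p under 0.05, and Kcna4 had the largest difference, 1.46, with control mouse 1 at -3.66. The mean of the list was 0.76, 0.57, 0.23 and 0.37 in hM3Dq mice 1, 3, 4 and 5 and -0.04 to 0.51 in control mice (median 0.18), so the groups overlapped, and without hM3Dq mouse 1 the median was 0.16. All 4 tested neurexin and neuroligin genes, which join pre- and postsynaptic membranes, were positive (median 0.52). Nlgn2, the neuroligin of inhibitory synapses, had 2.82, 2.84, 1.51 and 0.80 against -0.58 to 1.81 (difference 1.31, SE 0.52), and Nrxn3 differed by 0.80 (SE 0.34), while Nlgn1 differed by 0.15. Of 26 GABA and glutamate receptor genes 19 were positive (median 0.16), with medians of 0.049 without hM3Dq mouse 1, 0.099 without control mouse 5 and 0.27 without control mouse 6. Pan-neuronal genes (median 0.02), transmitter identity genes (median 0.05) and synaptic vesicle genes (median 0.06) were close to the median of all genes. The median longest transcript was 6639 bases for the potassium channels and 8615 for the neurexins and neuroligins, against 3473 for all protein-coding genes tested.

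Circadian clock genes had 13 of 17 positive differences and a median of 0.19, where 7455 of all 14582 genes were positive. Their median longest transcript was 4403 bases, against 3473 for all protein-coding genes tested. Their list mean was 0.51, 0.46, 0.52 and 0.37 in hM3Dq mice and 0.06 to 0.46 in control mice, where only control mouse 6, at 0.46, came within the hM3Dq range. The clock output factor Dbp (0.72, SE 0.30), Hlf of the same family (0.53, SE 0.24) and the light- and glucocorticoid-responsive Per1 (1.07, SE 0.48) were at an unadjusted p under 0.05. Of all genes tested, 183 (1.25%) were higher at that threshold. The parts differed: for Dbp the input difference was -0.68 and the IP difference 0.04, for Per1 they were -0.90 and 0.17, and for Hlf 0.01 and 0.54. The labels give no time of collection. Among 18 glucocorticoid and fasting genes 8 were positive (median -0.06), and the metallothionein Mt2, a zinc- and glucocorticoid-induced gene, differed by -0.59 (SE 0.26).

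Among vascular and blood genes 0 passed the test. Of 11 tested VEGF and angiogenic genes 10 had negative differences (median -0.26), from Nrp1, a VEGF co-receptor (-0.98), to Epas1, the only positive member (0.24), and without control mouse 4 the median was -0.15. Vegfa, the main angiogenic ligand, differed by -0.18 (interval -1.10 to 0.74), with hM3Dq mouse 4 at -1.48 and the other 3 at -0.08 to 0.85, and Plvap of fenestrated capillaries by 0.28 (interval -1.0 to 1.56). The 9 tested endothelial genes had a median of -0.30 and control mice from -0.89 to 0.95, so the list spread more between control mice than between genotypes. Of 18 genes in that list 14 were in the table used here, and 9 passed the filter on low values. Without control mouse 1 the median was 0.035, without control mouse 5 it was -0.11 and without hM3Dq mouse 1 it was -0.15. All 5 erythroid genes were negative (median -0.76), with list means of 0.97, 0.84, -0.39 and -0.07 in hM3Dq mice and -0.47 to 2.00 in control mice, and without hM3Dq mouse 4 the median was -0.42. Ttr, the transthyretin of choroid plexus, differed by -1.24 (SE 0.55), with an IP level of 0.58 to 5.50 FPKM in hM3Dq mice and 0.19 to 1785 in control mice; control mouse 1 held 1785 and the next highest control mouse 5.75.

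Glial lists overlapped fully. Medians were 0.22 for 13 tanycyte genes (0.13 without control mouse 7), 0.10 for 10 astrocyte genes, 0.16 for 8 oligodendrocyte precursor genes, -0.18 for 13 oligodendrocyte genes and 0.00 for 13 microglial genes. With each mouse left out in turn the astrocyte median ran from -0.087 to 0.34, the microglial from -0.21 to 0.13 and the oligodendrocyte from -0.31 to -0.037. Pdgfra, the growth factor receptor of oligodendrocyte precursors, differed by 0.85 (SE 0.36), and Ccdc153, of motile cilia in ependymal cells, by 1.14 (SE 0.39), of which -1.35 lay in the input. Control mouse 5 was the lowest of all 11 mice for the oligodendrocyte (-1.54), microglial (-1.38), astrocyte (-0.93) and ependymal (-1.78) lists. In the interferon and MHC class I list, H2-D1 had -1.70, -0.17, -0.33 and -0.55 in hM3Dq mice and -0.30 to 1.84 in control mice (difference -1.54, SE 0.44), and Ifi27 differed by 0.96 (SE 0.37).

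**Figure D4:**
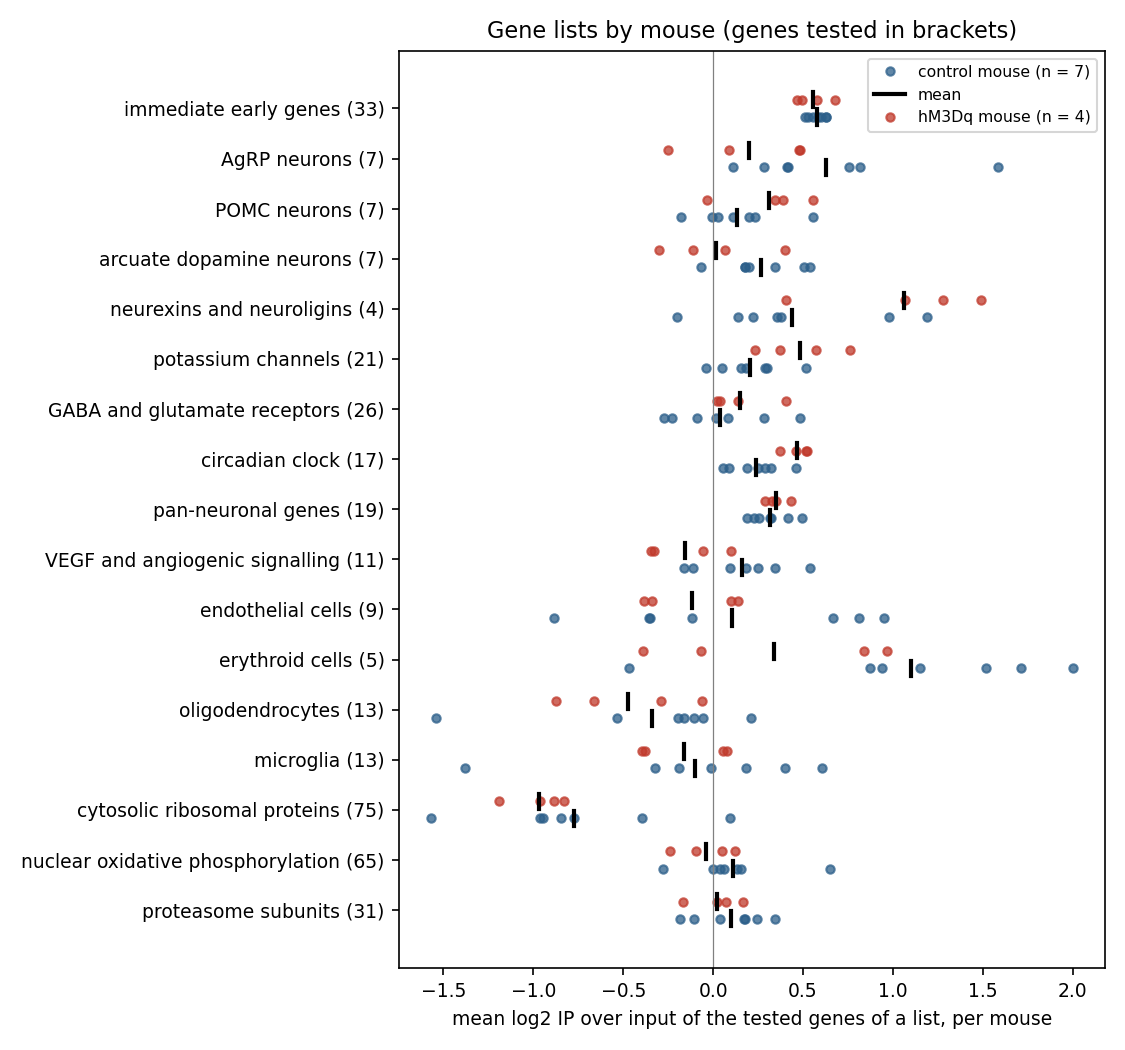
Mean IP over input (log2, x axis) of the tested genes of 17 lists, a point per mouse (hM3Dq in red, control in blue) with group means as black bars. Points of the genotypes overlap in every list, most closely for immediate early and pan-neuronal genes, and control mice spread widely for endothelial, oligodendrocyte and microglial genes.

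Genes of the translation and energy machinery gave lists of either sign. Translation factors had 11 positive and 9 negative differences (median 0.05) and glycolysis genes 10 and 6 (median 0.06). Of 75 cytosolic ribosomal protein genes 63 had a negative difference, with a median of -0.19, and Rpl35 (-0.91, SE 0.29), Rpl36 (-0.53, SE 0.22) and Rps23 (-0.63, SE 0.27) were at an unadjusted p under 0.05. The list mean was -0.96, -0.88, -1.19 and -0.83 in hM3Dq mice and -1.57 to 0.09 in control mice (median -0.84), the highest in control mouse 5. The direction rested on 2 control mice: without control mice 1 and 5 the median was 0.07. Leaving out 1 mouse gave -0.045 without control mouse 5, -0.11 without control mouse 1 or hM3Dq mouse 4, and -0.35 without control mouse 6. Rps6, the protein whose phosphorylation the antibody reads, differed by -0.08 (interval -0.55 to 0.39). Of 65 nuclear oxidative phosphorylation genes 42 were negative (median -0.14), and of 31 proteasome genes 19 (median -0.08), with the ATPase subunit Psmc3 at -0.50 (SE 0.20). The oxidative phosphorylation median was -0.033 without hM3Dq mouse 1, -0.055 without control mouse 1, -0.22 without hM3Dq mouse 3 and -0.24 without control mouse 6. The proteasome median was -0.027 without hM3Dq mouse 1 and -0.12 without hM3Dq mouse 3 or control mouse 4. All 9 mitochondrially encoded protein genes, read on mitochondrial ribosomes that lack S6, were negative, with a median of -0.53. Their mean was -5.16, -5.57, -6.16 and -5.75 in hM3Dq mice and -6.15 to -2.68 in control mice (median -5.51), the highest again in control mouse 5, and without that mouse the median difference was -0.16, while without hM3Dq mouse 1 it was -0.98. Among 20 genes of the mTORC1 and S6 kinase pathway, which sets S6 phosphorylation, 11 were negative (median -0.04). The translation repressor Eif4ebp1 (-1.40, SE 0.48) and the mTOR partner Mlst8 (-1.10, SE 0.49) were at an unadjusted p under 0.05. The groups overlapped for both genes. Eif4ebp1 levels were low, at 0.11 to 0.37 FPKM in the hM3Dq IP and 0.29 to 1.72 in the control IP. Its IP over input was -0.81, 0.42, -2.63 and -0.62 in hM3Dq mice and 0.16 to 1.26 in control mice. The lowest value was that of hM3Dq mouse 4, whose input was 5.87 FPKM, against 0.02 to 1.28 in the other hM3Dq mice.

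Differences followed transcript length, a pattern noticed in these data and given without a test. The 12417 protein-coding genes with a length were divided into 5 classes by longest annotated transcript. Median differences were -0.11, -0.04, 0.00, 0.05 and 0.14 from the shortest class (median 1456 bases) to the longest (median 6979 bases), and 38.1% to 68.2% of genes were higher in hM3Dq mice. Spearman's rho between length and difference was 0.236 across genes, which are not independent replicates. By mouse, the median IP over input of the longest class minus that of the shortest was 0.54, 0.09, 0.17 and 0.24 in hM3Dq mice 1, 3, 4 and 5. In the control mice it ran from -0.66 in mouse 1 to 0.28 in mouse 6 and was below 0 in mice 1 and 2 only. Of the hM3Dq mice, only mouse 1 lay outside the control range. Without control mouse 1, rho was 0.133 and the medians of the shortest and longest class were -0.06 and 0.08. The potassium channel list, of long transcripts, and the ribosomal protein list, of short ones, lay on opposite sides in this pattern. Other lists did not follow it. The mTORC1 list (median 5295 bases) had a median difference of -0.04 and the lateral hypothalamic peptide list (1713 bases) 0.10. The part of length in the list medians was not tested.

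**Figure D5:**
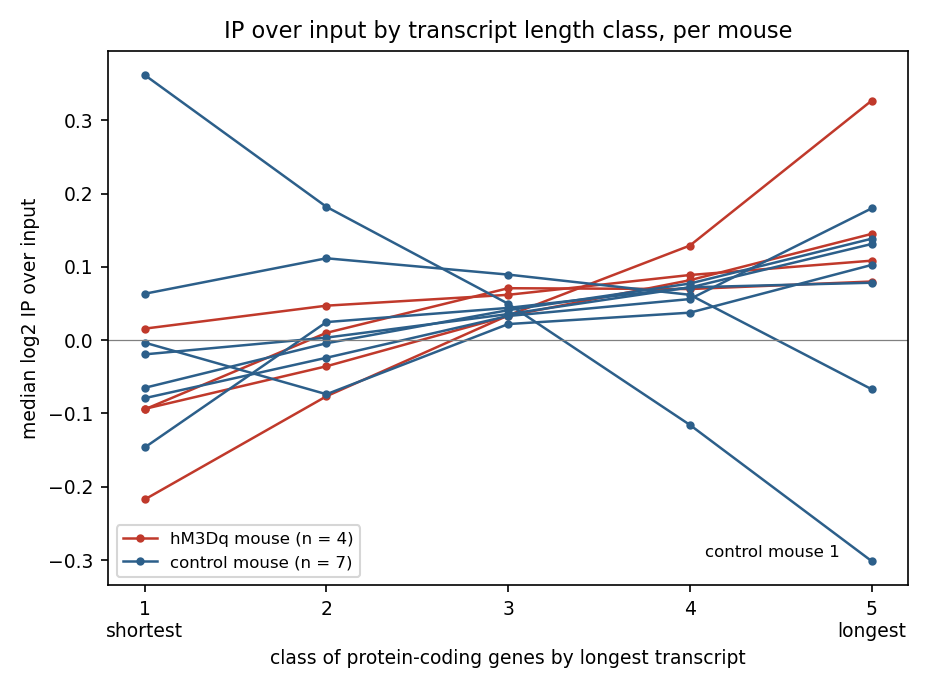
Median IP over input (log2, y axis) of 5 classes of protein-coding genes from the shortest to the longest transcripts (x axis), a line per mouse, hM3Dq in red and control in blue. All 4 hM3Dq lines and 5 of the 7 control lines end higher than they start, and the line of control mouse 1 falls from 0.36 to -0.30.

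The genes most enriched in the IP, taken as the mean of both genotypes, overlapped between the genotypes. Jun, an AP-1 factor, stood at 1.43 ± 0.27 in hM3Dq and 1.25 ± 0.37 in control mice, the m6A writer component Zc3h13 at 1.83 ± 0.59 and 1.42 ± 0.64, the imprinted noncoding RNA Peg13 at 1.41 ± 0.30 and 1.18 ± 0.41, and the initiation factor Eif1a at 1.36 ± 0.47 and 1.22 ± 0.50. Differences over these 10 genes ran from -0.85 for Fam3a to 1.31 for Nlgn2. At the other end were Bc1, Rn7sk, Ccnb1ip1, Rmrp and 6 mitochondrially encoded genes, led by mt-Nd1 at -6.74 ± 0.58 and -5.79 ± 1.12. All 10 of these lay below -3 in the mean of both genotypes and all 10 had negative differences, against 7127 of all 14582 genes. The 6 mitochondrially encoded genes do not count as separate observations. The mean of their list was -2.68 in control mouse 5, against a control median of -5.51.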

How the data were processed

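RNA of the phosphorylated S6 immunoprecipitate and of the input of 11 mice were measured by RNA sequencing, 1 library each. The authors deposited normalized FPKM values for 17440 genes, made with HISAT2 2.1.0, StringTie 1.3.4d and build GRCm38.p6 per the submitters' processing notes, and the normalization method is not given in the sources used here. The 11 deposited columns of ratios per mouse, and the deposited p-values and fold changes, were not used. Values were analysed as log2(FPKM + 1), which understates changes of low genes. IP and input were paired by mouse, and genotypes were not paired, since their shared numbers name different animals. The per-mouse differences were fitted with limma 3.58.1 in R 4.3.3 (lmFit and eBayes, prior variance following the gene's mean level) and adjusted by Benjamini-Hochberg over all 14582 genes, two-sided. The fit was tested on simulated data with independent normal noise and, for each gene, the same SD in both genotypes. The spread differed between genotypes here, so that simulation does not show how the fit performs on these data. Whether mice were independent beyond their labels is not stated, and the p-values assume that they were. The limma fit took a common variance for both genotypes, though the median SD was 0.66 in control and 0.41 in hM3Dq mice. The members and the 41 gene lists were chosen with earlier results of these data known.

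Genes named were the 10 with the smallest p in each direction and the 10 highest and lowest in IP over input, at a mean FPKM of at least 5 and without a provisional symbol (2212 genes had one), plus 15 chosen genes and the extreme members of each list. The small structural RNA genes, Gm24245 and list members at an unadjusted p under 0.05 were named after their values were seen. Symbols and positions came from GENCODE M21 (GRCm38). Depth in reads is unknown. Python 3.11.15, pandas 2.3.3 and matplotlib 3.10.9 were used. There were 24 alternatives, 2 of them chosen after seeing the data. Some sequences are not reported here.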

Additional observations from a re-analysis of the deposited data

Results flagged for a closer look

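Among 344 groups of mice examined (named genes, lists and measures per mouse, in each genotype), 23 held a mouse whose gap to the nearest other mouse exceeded Dixon's 95% value. Chance gives about 1 in 20. Control mouse 5 accounted for 6 of them and control mouse 1 for 4. In IP over input (log2), control mouse 1 stood apart for Slc25a33 (0.072, above -1.05 to -0.66), Rps27l (1.77), Jun (0.45, below 1.18 to 1.51 in the others) and the mean of the choroid plexus list (1.35). Control mouse 5 stood apart for Npy (3.31, above 0.16 to 1.13), Eno2 (-0.70), Mal (-2.59), Csf1r (-1.54), and the means of the oligodendrocyte (-1.54) and glycolysis (-0.18) lists. Control mouse 3 did for Smad3 (3.32) and Gm26397 (-6.96), and control mouse 6 for Ccnb1ip1 (-6.65) and Hbb-bs (-0.85). Among hM3Dq mice, mouse 1 stood apart for Nrp1 (-1.22), Tshb (-1.03), Pabpc1 (0.97) and Gm25848 (-7.01), and mouse 3 for the mean of the peptide processing list (0.34). Mouse 4 did for Dcn (0.80) and Pfkl (-0.31), and mouse 5 for the mean of the glucocorticoid and fasting list (-0.32) and for the share of genes beyond 1 in size (6.88%, against 13.5% to 14.6%).

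Of the genes named, 3 had every hM3Dq mouse on one side of 0 and every control mouse on the other: Mtg1 (difference 1.61), Lix1l (0.96) and Rpp21 (-1.55). They were named for their small p, which favours such a pattern, and over all 14582 genes it was seen in 2 (0.0137%) with hM3Dq mice above 0 and in 7 (0.048%) with them below. The limma test of each difference did not pass over all genes (adjusted p = 0.999 for each).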

How the results depend on the processing

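Each result was recomputed under 24 alternatives. No alternative called a gene except the fit without hM3Dq replicate 5, which called 1, so the count called ranged from 0 to 1 when each mouse was left out. The 448 genes at an unadjusted p under 0.05 became 295 with a filter at FPKM 5, 714 with mouse weights and 695 without control mice 1, 5 and 6, and 299 to 556 when each mouse was left out. Shared mouse numbers name different animals, so they do not pair the genotypes. With no replicate block for the mouse behind each IP and input pair, 0 genes were called and 350 were at an unadjusted p under 0.05. Of 2944 alternative values for 124 named genes, 52 changed sign, in 20 genes, none of them called, and the cause was not tested. Without control mice 1, 5 and 6 the differences were -0.017 for Fos, 0.0064 for Fosb, 0.073 for Npy, 0.053 for Vegfa, -0.21 for Plvap, -0.16 for Npy2r, -0.078 for Nlgn1, -0.043 for Epas1, 0.013 for mt-Nd5 and 0.17 for Npas2. Without control mice 1 and 5 they were 0.044 for Fosb, 0.098 for Npy, 0.084 for Rps6, -0.032 for Npy2r, -0.099 for Nlgn1 and 0.013 for mt-Nd5. With mouse weights they were 0.015 for Fosb, 0.027 for Rps6, -0.080 for Npy2r and -0.022 for Nlgn1. Quantile normalization gave 0.026 for Fosb and 0.068 for Gad2, a pseudocount of 5 gave -0.033 for Npy2r and -0.029 for Otx2, and no pseudocount gave -0.18 for Ly6c1. When each mouse was left out in turn, differences ranged from -0.27 to 0.19 for Smad3, -0.60 to 0.054 for mt-Nd4l, -0.22 to 0.031 for Fosb, -0.38 to 0.15 for Npy, -0.49 to 0.29 for Vegfa, -0.013 to 0.57 for Plvap, -0.17 to 0.053 for Rps6, -0.83 to 0.0083 for Parpbp, -0.19 to 0.14 for Npy2r, -0.17 to 0.49 for Gch1, -0.100 to 0.082 for Gad2, -0.032 to 0.31 for Nlgn1, -0.14 to 0.27 for Dcn, -0.29 to 0.051 for Sox14 and -0.52 to 0.21 for mt-Nd5. Of 984 alternative medians for the lists, 18 moved by more than the spread between mice and 22 lists changed sign somewhere. Depth in reads is unknown, and the median standard error of 0.40 limits what could be detected.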
